A study of Homo sapiens with 38 samples.

Results

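Human neuroblastoma cell lines were profiled by RNA-seq after treatment with an inhibitor of the histone demethylase KDM6B or with siRNA designed against it, and after inhibition of the cell cycle kinases CDK4 and CDK6. The 9 genes described here encode histone chaperones and factors of histone RNA: ASF1A, ASF1B, CHAF1A, CHAF1B, NASP, HJURP, HIRA, SLBP and NPAT. They were chosen by symbol, and all 9 had a row in each of the 38 deposited count tables, among 49070 gene symbols shared by the tables. BE2C cells, an established line with MYCN amplification, received 2.5 μM GSK-J4, which blocks KDM6B and its relative KDM6A, for 0 h, 24 h or 48 h, or were transfected for 72 h with a control siRNA (siCtrl) or with the siRNA N1, N2 or N33 against KDM6B. The established lines CHLA15 and CHLA20 received palbociclib, a CDK4 and CDK6 inhibitor, at 300 nM for 72 h, the lines NB1643 and NB1691 at 3 μM for 72 h, and each line had its own control. The paper counts 2 of its 4 palbociclib lines as MYCN-amplified and 2 as not, and the part of this difference was not tested. There were 2 libraries for every group except the 3 KDM6B siRNAs, which had 1 library each, so that 27 libraries from 5 lines were compared. The labels did not say whether libraries of a group came from separate cultures, so p-values measure the spread between these libraries, which may be technical.

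Histone chaperones escort histones between their synthesis and their deposition on DNA, and hand them from one carrier to the next. NASP keeps a soluble reserve of histones H3 and H4, ASF1A and ASF1B pass H3 and H4 on, the CAF-1 complex with its subunits CHAF1A and CHAF1B places them on newly replicated DNA, HIRA places the replacement variant of H3 outside of replication, and HJURP places the centromeric variant CENP-A. NPAT co-activates the replication-dependent histone genes in S phase, and SLBP binds the stem-loop at the end of their mRNAs and is needed for their processing and translation.

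Counts on genes came to 36186567 to 63433818 per library with GSK-J4, 41227956 to 50776662 with siRNA and 45457371 to 93011010 in the palbociclib experiment, so that 3 counts were worth at most 0.0829 CPM, a count scaled to a common library size. The adrenergic neuroblastoma markers HAND2, GATA3, DBH and ISL1 were at 9.46 CPM or more in every library. SOX10, a Schwann cell marker, was at most 0.0166 CPM, and PTPRC, a blood cell marker, at most 0.544 CPM. COL1A1, a fibroblast marker, stood at 14600 to 19800 CPM in the 4 NB1691 libraries. COL1A2, which encodes the partner chain, stood at 0.964 to 1.76 CPM there. In CHLA15 COL1A1 was at 30.5 to 99.1 CPM, in CHLA20 at 42.2 to 106 CPM, in NB1643 at most 1.39 CPM and in BE2C at most 0.821 CPM. DCN, another fibroblast marker, was lower in NB1691 than in CHLA15 and CHLA20, unlike COL1A1. It had 2.13 to 3.05 CPM in NB1691 and at most 0.345 CPM in NB1643. It was at 75 to 105 CPM in CHLA15, 96.1 to 117 CPM in CHLA20 and 1.5 to 89.9 CPM in BE2C. The part of these markers in the results was not tested. The BE2C and the palbociclib libraries were scaled separately, and no test was made between them.

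The genes lie on 8 chromosomes in GRCh37: ASF1A at chr6:119215316-119230336 on the plus strand, its paralogue ASF1B at chr19:14230324-14247425 on the minus strand, CHAF1A at chr19:4402637-4445015 on the plus strand, CHAF1B at chr21:37757690-37791313 on the plus strand, NASP at chr1:46049518-46084576 on the plus strand, HJURP at chr2:234742062-234763212 on the minus strand, HIRA at chr22:19318221-19434973 on the minus strand, SLBP at chr4:1694458-1714071 on the minus strand and NPAT at chr11:108027942-108093365 on the minus strand. HIRA shares 66.5% of its exon bases with C22orf39 on the same strand, and both genes are counted in the tables, so HIRA values are uncertain. ASF1A shares 7.92% of its exon bases with MCM9 on the opposite strand, and the other overlaps with counted genes cover at most 1.74% of a gene's exons. Whether the counting used strand was not stated.

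The promoters of the ASF1 paralogues, of HJURP and of HIRA are shown because ASF1B and ASF1A had unlike values with siRNA and palbociclib, HJURP moved most of the 9 in NB1643 and NB1691, and HIRA was called with palbociclib in no line. They are the 250 bases before the RefSeq transcription start, 5′ to 3′ on the strand of the gene, in GRCh38.p14. Capitals mark matches on either strand to a CHR element, searched as TTTGAA and as its variant with the letters TTCGAA, to a CCAAT box, searched by those letters, or to an E2F-like site. The E2F-like letters searched were TTTCCCGC, TTTCGCGC, TTTGCCGC and TTTGGCGC. The windows are chr6:118893902-118894151 on the plus strand for ASF1A, chr19:14136590-14136839 on the minus strand for ASF1B, chr2:233854536-233854785 on the minus strand for HJURP and chr22:19431734-19431983 on the minus strand for HIRA.
ASF1A: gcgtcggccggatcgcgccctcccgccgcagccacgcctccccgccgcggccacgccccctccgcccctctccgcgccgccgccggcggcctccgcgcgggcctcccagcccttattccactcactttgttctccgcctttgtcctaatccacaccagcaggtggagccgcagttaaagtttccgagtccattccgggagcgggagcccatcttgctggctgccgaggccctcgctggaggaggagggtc
ASF1B: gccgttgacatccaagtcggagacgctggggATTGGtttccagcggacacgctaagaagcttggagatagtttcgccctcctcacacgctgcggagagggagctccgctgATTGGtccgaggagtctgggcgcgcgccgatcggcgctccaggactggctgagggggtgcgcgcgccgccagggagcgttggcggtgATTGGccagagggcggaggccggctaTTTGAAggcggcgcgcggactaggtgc
HJURP: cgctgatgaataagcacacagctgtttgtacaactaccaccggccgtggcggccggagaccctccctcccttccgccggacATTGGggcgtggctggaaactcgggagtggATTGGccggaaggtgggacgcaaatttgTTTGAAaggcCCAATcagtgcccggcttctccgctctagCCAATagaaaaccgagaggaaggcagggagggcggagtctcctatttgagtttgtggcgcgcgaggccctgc
HIRA: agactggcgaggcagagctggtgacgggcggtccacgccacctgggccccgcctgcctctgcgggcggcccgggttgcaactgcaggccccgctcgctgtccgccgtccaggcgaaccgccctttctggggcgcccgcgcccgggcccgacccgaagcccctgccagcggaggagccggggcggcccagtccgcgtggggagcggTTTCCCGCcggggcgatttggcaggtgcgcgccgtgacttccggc

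A CHR element was found in 2 of the 9 promoters, those of ASF1B and HJURP. This count is near the share of all promoters, 16.4% of the 35116 searched over 300 bases, 50 of them after the start. The element lay at different distances in the 2 genes. It began 27 bases before the start of ASF1B and 111 bases before that of HJURP. The CCAAT box occurred in 6 of the 9 promoters (ASF1A, ASF1B, CHAF1A, HJURP, NASP and NPAT) against 34.6% of all, and in ASF1A it lay after the start, outside the printed window. An E2F-like site with these letters was found in HIRA alone, against 3.31% of all promoters. The E-box CACGTG was found in CHAF1A alone, against 7.26%, and the GC box GGGCGG in all 9, against 45%. These are matches of letters in a window and were not tested against the expression values.

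Levels were first compared between the genes as CPM per kilobase of annotated exon. In BE2C at 0 h of GSK-J4, SLBP was highest with 49.0 CPM per kilobase, followed by NASP with 29.7, HJURP with 26.5, CHAF1A with 24.3, ASF1B with 21.3, ASF1A with 19.0, NPAT with 10.6, CHAF1B with 7.83 and HIRA with 3.12, and no neighbours in this order overlapped between libraries. In the untreated CHLA15, CHLA20 and NB1643 libraries NASP came first, with 41.3, 44.9 and 63.0 CPM per kilobase, and SLBP second. SLBP led in untreated NB1691 with 27.5 CPM per kilobase, where ASF1B and ASF1A were at 15.7 and 15.6 and overlapped, as NPAT and CHAF1B did at 3.92 each. In untreated CHLA20 the libraries of SLBP and ASF1B overlapped, at means of 42.6 and 40.3 CPM per kilobase. The lowest place in each of these groups was held by HIRA or NPAT. After palbociclib, HJURP held it in NB1643 and NB1691, with 1.31 and 0.796 CPM per kilobase. These orders depend on the annotated exon lengths. The place of HIRA is uncertain, since it shares 66.5% of its exon bases with C22orf39.

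In BE2C the RNA of most of these chaperones was lower at 48 h of GSK-J4 than at 0 h. The histone RNA factors SLBP and NPAT were higher. No group without GSK-J4 was sampled at 24 h or 48 h, so the inhibitor and time in culture cannot be told apart in any GSK-J4 comparison. At 48 h all 9 genes passed the test against 0 h, 2 higher and 7 lower, where 37.1% of the 17734 genes tested were called higher and 34.4% lower. NASP, the reserve of H3 and H4, had 243.8 and 250.0 CPM at 0 h, 205.8 and 194.9 CPM at 24 h, and 155.2 and 152.9 CPM at 48 h. The groups did not overlap, and the log2 fold change at 48 h was -0.66 (SE 0.0313, adjusted p = 2e-23). HJURP had 101.4 and 101.0 CPM at 0 h, 91.05 and 90.43 CPM at 24 h, and 66.09 and 65.90 CPM at 48 h, a log2 fold change of -0.60 at 48 h (SE 0.0355, adjusted p = 8.45e-20). Both genes thus lay lower at each later time, and at 48 h they were 1.58-fold and 1.51-fold below 0 h. In bulk RNA, fewer cells in a given phase of the cycle and less RNA per cell cannot be told apart.

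Most of the decrease of the CAF-1 subunits came between 24 h and 48 h. CHAF1B had 39.95 and 39.98 CPM at 0 h, 40.31 and 40.72 CPM at 24 h, and 29.64 and 30.05 CPM at 48 h. Its 24 h value differed little from 0 h, with a log2 fold change of 0.0235 (95% interval -0.0720 to 0.119, adjusted p = 0.703), and from 24 h to 48 h it fell by 0.42 on the log2 scale (SE 0.0462, adjusted p = 7.58e-11). CHAF1A, the large subunit, had 103.1 and 107.4 CPM at 0 h, 98.56 and 99.12 CPM at 24 h, and 80.65 and 79.38 CPM at 48 h. Its log2 fold change was -0.087 at 24 h (adjusted p = 0.0332), a call held in 4 of 13 alternatives, and -0.37 at 48 h (adjusted p = 4.65e-13). The 24 h call of CHAF1A was lost without the 0 h library 2 (adjusted p = 0.359), without the 24 h library 1 (0.122) or without the 24 h library 2 (0.101).

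The ASF1 paralogues had different time courses. ASF1A had 49.59 and 48.83 CPM at 0 h, 36.73 and 37.70 CPM at 24 h, and 36.16 and 37.85 CPM at 48 h, so that the 48 h libraries lay at the 24 h level. It fell by 0.40 on the log2 scale at 24 h (SE 0.0465, adjusted p = 4.28e-10), and the 48 h and 24 h libraries overlapped, with a log2 fold change of 0.00683 (95% interval -0.0849 to 0.0985). ASF1B, the form tied to proliferating cells, had 41.68 and 41.84 CPM at 0 h, 40.61 and 40.72 CPM at 24 h, and 33.30 and 33.87 CPM at 48 h. Its log2 fold change was -0.0345 at 24 h (95% interval -0.129 to 0.0598, adjusted p = 0.559), and it fell by 0.29 at 48 h (SE 0.0468, adjusted p = 3.29e-07).

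SLBP and NPAT were the only 2 of the 9 called higher, at both times. SLBP had 91.90 and 92.63 CPM at 0 h, 102.7 and 101.2 CPM at 24 h, and 108.1 and 111.9 CPM at 48 h, and rose by 0.15 at 24 h (adjusted p = 0.000355) and by 0.27 at 48 h (adjusted p = 1.56e-09) on the log2 scale. NPAT had 81.28 and 78.65 CPM at 0 h, 92.49 and 89.33 CPM at 24 h, and 94.45 and 102.7 CPM at 48 h, with increases of 0.19 (adjusted p = 5.17e-05) and 0.32 (adjusted p = 3.8e-10). Of all genes tested at 48 h, 61.7% had a lower log2 fold change than SLBP and 64.2% a lower one than NPAT. The median over all these genes was 0.0546. Upper quartile scaling moved that median to 0.164, an upward shift of all genes that gives no check of these increases. HIRA had 14.22 and 12.61 CPM at 0 h, 13.71 and 12.11 CPM at 24 h, and 11.63 and 11.01 CPM at 48 h. It fell by 0.22 at 48 h (adjusted p = 0.0123), a call held in 8 of 13 alternatives and lost without the 0 h library 1 (adjusted p = 0.201) or without the 48 h library 2 (0.0869).

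At 24 h, 6 of the 9 genes were called, 2 higher (SLBP and NPAT) and 4 lower (ASF1A, CHAF1A, NASP and HJURP), where 27.3% of all genes tested were called higher and 28% lower. From 24 h to 48 h 7 were called, 2 higher (again SLBP and NPAT) and 5 lower (ASF1B, CHAF1A, CHAF1B, NASP and HJURP), against 25.9% and 28% of all genes. The call of NPAT in this step was lost without the 24 h library 2 (adjusted p = 0.071) or the 48 h library 2 (0.217), and that of SLBP without the 48 h library 2 (0.0554). HIRA was not called in it (adjusted p = 0.0568) and was called without the 24 h library 2 (0.0105). The 3 time comparisons share libraries and are not independent of each other. The cell cycle markers moved in the same libraries: 5 of 6 (MKI67, TOP2A, CCNA2, CCNB1 and PCNA) fell at 48 h, from -0.25 for PCNA to -1.80 for CCNB1 on the log2 scale, and CCND1 rose by 0.10. Their part in the changes of the chaperones was not tested.

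**Figure D1:**
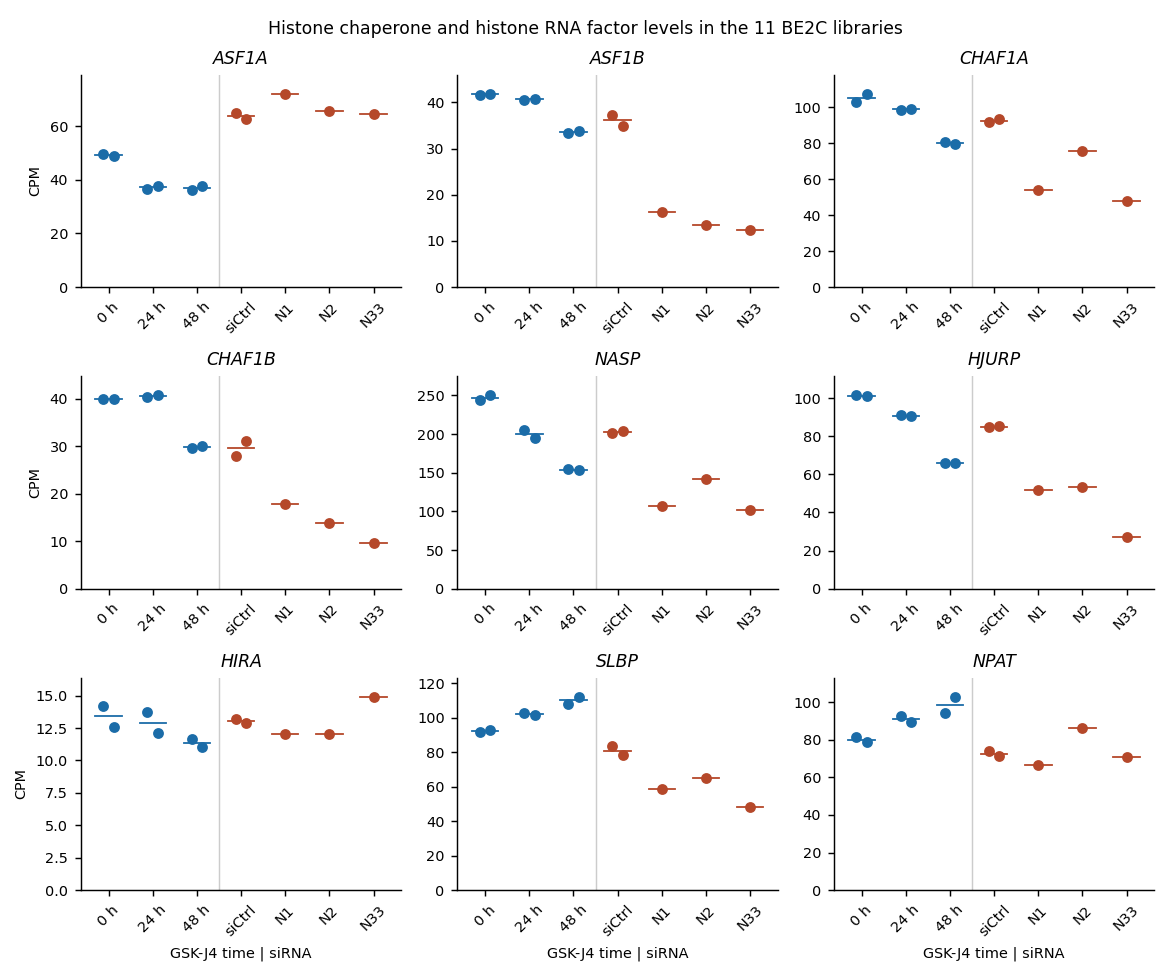
CPM (vertical axes, from 0) of the 9 genes in the 11 BE2C libraries, by GSK-J4 time (blue) and siRNA (red); points are libraries and bars are group means. NASP and HJURP step down at 24 h and 48 h, SLBP and NPAT step up, and ASF1B lies at 12.38 to 16.32 CPM in the 3 libraries labelled siKDM6B against 34.93 and 37.23 CPM in siCtrl.

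KDM6B itself had 6.241 and 8.420 CPM in the siCtrl libraries and 8.579, 6.861 and 7.915 CPM in the libraries labelled siKDM6B N1, N2 and N33. The groups overlapped, with a log2 fold change of 0.0917 (95% interval -0.626 to 0.809), so the RNA gave no check of the knockdown, and the libraries are named by their labels. For knockdown efficiency the paper refers to western blots of BE2C cells given KDM6B siRNAs. Protein was not measured in these libraries. With GSK-J4, KDM6B RNA rose by 1.58 on the log2 scale at 48 h (adjusted p = 6.83e-24).

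In the libraries labelled siKDM6B ASF1B lay low while its paralogue ASF1A did not. ASF1B had 37.23 and 34.93 CPM with siCtrl and 16.32, 13.48 and 12.38 CPM with N1, N2 and N33, so all 3 siRNA libraries lay below both controls. ASF1A had 64.96 and 62.66 CPM with siCtrl and 72.01, 65.52 and 64.56 CPM with the siRNAs, which overlapped the controls. With the 3 siRNAs as 1 group, the log2 fold change was -1.35 for ASF1B (95% interval -1.92 to -0.788, adjusted p = 0.52) and 0.0839 for ASF1A (95% interval -0.395 to 0.563). None of the 9 genes passed the threshold in this comparison by edgeR, and neither did any of the 17472 genes tested (0%), although 5 of the 9 and 1615 genes of all had an unadjusted p under 0.05. DESeq2 called 1 of the 9 (ASF1B, adjusted p = 0.0014) where it called 0.899% of all genes, and limma-voom called 0 of the 9 and 0% of all. The siRNAs differed from each other: the common coefficient of variation was 0.35, against 0.0219 among the GSK-J4 libraries.

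Both CAF-1 subunits, NASP, HJURP and SLBP also lay below both controls in all 3 siRNA libraries, which made 6 of the 9 genes with ASF1B, against 17% of the genes tested. CHAF1B had 28.01 and 31.07 CPM with siCtrl and 17.92, 13.87 and 9.704 CPM with N1, N2 and N33, a log2 fold change of -1.09 (95% interval -1.83 to -0.345, adjusted p = 0.52). CHAF1A had 91.82 and 93.16 CPM with siCtrl and 53.73, 75.70 and 47.70 CPM with the siRNAs (log2 fold change -0.64, 95% interval -1.26 to -0.0259, adjusted p = 0.533). N2 left more CHAF1A than N1 did and less CHAF1B. HJURP had 84.83 and 85.25 CPM with siCtrl and 51.86, 53.58 and 27.12 CPM with N1, N2 and N33, and N33 was lowest by a wide step. NASP had 200.8 and 204.5 CPM against 106.5, 141.4 and 102.0 CPM, and SLBP 83.30 and 78.04 CPM against 58.61, 65.11 and 48.19 CPM. HIRA (13.23 and 12.90 CPM against 12.01, 12.04 and 14.89 CPM) and NPAT (74.05 and 71.18 CPM against 66.37, 86.30 and 70.72 CPM) had siRNA libraries on either side of the controls.

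Each siRNA library was also set against siCtrl in a fit of all 11 BE2C libraries, in which the lone library is assumed to vary like the groups with 2. The common coefficient of variation was 0.031 in this fit and 0.35 among the siRNA libraries, so these calls add no support to the CPM values above. ASF1B, CHAF1A, CHAF1B, NASP, HJURP and SLBP were called lower in all 3. With N1, 7 of the 9 were called, these 6 lower and ASF1A higher by 0.18 on the log2 scale (adjusted p = 0.0101), where 25.2% of all genes were called higher and 27.2% lower. With N2, these 6 were lower and NPAT was higher by 0.25 (adjusted p = 0.000341), against 23.7% and 24.7% of all genes. With N33, these 6 were lower and none was higher, against 30.8% and 29.7%. The largest decreases were those of HJURP, CHAF1B and ASF1B with N33, with log2 fold changes of -1.65, -1.61 and -1.54. These 3 comparisons share the siCtrl libraries and test single libraries. The 6 cell cycle markers had log2 fold changes of -0.21 for CCND1 to -0.935 for PCNA in the comparison of the 3 siRNAs with siCtrl, none called, and their part was not tested.

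Palbociclib lowered HJURP, CHAF1A, CHAF1B and NASP in all 4 lines, ASF1B and SLBP in 3 of them, and the fitted decreases were larger in NB1643 and NB1691 than in CHLA15 and CHLA20. The NB lines received 3 μM and the CHLA lines 300 nM, so line and dose cannot be told apart. HJURP had 58.83 and 60.02 CPM in untreated NB1643 and 5.276 and 4.754 CPM after palbociclib, an 11.8-fold decrease (log2 fold change -3.56, SE 0.0710, adjusted p = 2.44e-17). In NB1691 it had 34.58 and 34.41 CPM untreated and 3.233 and 2.851 CPM treated, an 11.3-fold decrease (log2 fold change -3.50, SE 0.0772, adjusted p = 1.4e-16). Of the 22133 genes tested, 181 had a lower log2 fold change in NB1643 and 84 in NB1691. In CHLA15 HJURP had 56.46 and 54.62 CPM against 37.92 and 38.32 CPM, and in CHLA20 53.50 and 57.16 CPM against 37.46 and 37.59 CPM, decreases of 1.46-fold (adjusted p = 1.03e-06) and 1.47-fold (adjusted p = 6.12e-07). The treated groups lay below the untreated groups in all 4 lines.

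ASF1B had 33.12 and 31.18 CPM in untreated NB1643 against 4.463 and 4.979 CPM with palbociclib, a 6.85-fold decrease (adjusted p = 9.72e-14), and 30.60 and 30.68 CPM against 4.161 and 3.051 CPM in NB1691, an 8.41-fold decrease (adjusted p = 6.04e-14). In CHLA20 it had 72.51 and 85.29 CPM against 56.24 and 57.40 CPM, a 1.39-fold decrease (adjusted p = 0.000154). In CHLA15 the groups overlapped, at 64.63 and 67.55 CPM untreated and 69.92 and 67.41 CPM treated (log2 fold change 0.0555, 95% interval -0.112 to 0.223, adjusted p = 0.675). ASF1A stayed between 23.90 and 40.69 CPM in all 16 libraries. It fell in NB1691 by 0.28 on the log2 scale (adjusted p = 0.00308), from 39.97 and 40.69 CPM to 33.82 and 32.76 CPM. In NB1643 ASF1A had 23.90 and 28.13 CPM untreated and 28.85 and 29.53 CPM treated, a log2 fold change of 0.17 (adjusted p = 0.0545) that 6 of 12 alternatives called higher, among them DESeq2 (0.0219), limma-voom (0.0406) and the fit without the NB1643 control library 2 (0.00286). In CHLA15 it had 29.16 and 28.88 CPM untreated and 32.59 and 32.41 CPM treated, a log2 fold change of 0.16 (adjusted p = 0.0742) that 4 of 12 alternatives called higher. In CHLA20 the groups overlapped, with a log2 fold change of 0.00944 (95% interval -0.131 to 0.150).

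**Figure D2:**
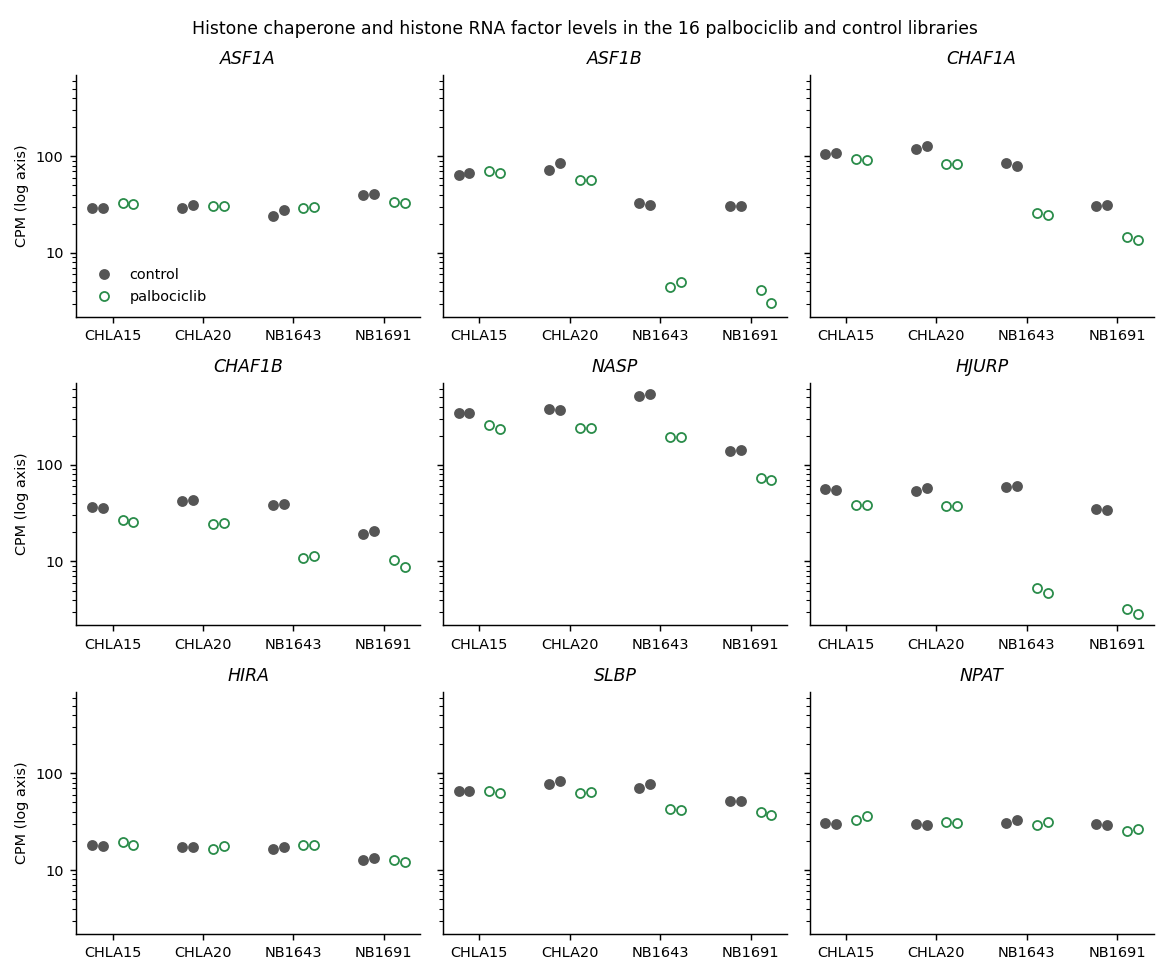
CPM (vertical log axes) of the 9 genes in the 16 palbociclib-experiment libraries, by line; filled points are control libraries and open points palbociclib libraries, 2 each. HJURP and ASF1B drop most in NB1643 and NB1691, and HIRA and NPAT stay near their untreated level in each line.

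Both CAF-1 subunits fell in all 4 lines. CHAF1A had 85.60 and 79.19 CPM in untreated NB1643 against 25.80 and 24.71 CPM treated (3.26-fold lower, adjusted p = 3.92e-14), and 30.46 and 31.21 CPM against 14.55 and 13.49 CPM in NB1691 (2.20-fold lower, adjusted p = 7.98e-11). CHAF1B had 38.28 and 39.39 CPM against 10.83 and 11.29 CPM in NB1643 (3.51-fold lower, adjusted p = 2.88e-13), and 19.12 and 20.86 CPM against 10.29 and 8.833 CPM in NB1691 (2.09-fold lower, adjusted p = 2.31e-09). The decreases were smaller in CHLA20, with log2 fold changes of -0.56 for CHAF1A and -0.79 for CHAF1B, and in CHLA15, with -0.19 and -0.46. In CHLA15 the call of CHAF1A (adjusted p = 0.0144) was lost without the palbociclib library 1 (0.0633) or 2 (0.0901) or the control library 2 (0.117).

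NASP fell in all 4 lines as well, from 508.9 and 537.8 CPM to 194.0 and 194.2 CPM in NB1643, from 138.5 and 141.5 CPM to 72.96 and 70.10 CPM in NB1691, from 376.7 and 369.2 CPM to 242.5 and 241.7 CPM in CHLA20, and from 340.5 and 345.4 CPM to 255.6 and 234.9 CPM in CHLA15. The folds were 2.70, 1.96, 1.54 and 1.40 lower, with adjusted p of 6.14e-14, 4.57e-11, 2.83e-08 and 7.84e-07. SLBP fell in NB1643 (log2 fold change -0.80, adjusted p = 4.71e-09), in NB1691 (-0.44, adjusted p = 1.84e-05) and in CHLA20 (-0.34, adjusted p = 0.000173). In CHLA15 it had 65.69 and 66.12 CPM untreated and 66.24 and 62.72 CPM treated, which overlapped (log2 fold change -0.0315, 95% interval -0.156 to 0.0926). SLBP was thus higher after GSK-J4 in BE2C and lower after palbociclib in 3 of 4 lines, in experiments that were not compared by a test.

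HIRA and NPAT, which serve histone deposition outside of replication and histone gene transcription, moved little. HIRA ranged from 16.41 to 19.30 CPM in CHLA15, CHLA20 and NB1643 and from 12.06 to 13.33 CPM in NB1691, and was called in no line, although upper quartile scaling called it higher in NB1643 (adjusted p = 0.0468). NPAT rose in CHLA15 by 0.19 (adjusted p = 0.027), from 30.54 and 29.99 CPM to 32.95 and 36.21 CPM, and fell in NB1691 by 0.19 (adjusted p = 0.0304), from 29.64 and 29.35 CPM to 25.05 and 26.76 CPM. Each call held in 7 of 12 alternatives. The CHLA15 call was lost without the palbociclib library 2 (adjusted p = 0.34), the control library 1 (0.104) or the control library 2 (0.151), and the NB1691 call without the palbociclib library 1 (0.266), the control library 1 (0.131) or the control library 2 (0.111). In CHLA20 (0.0716, 95% interval -0.0617 to 0.205) and NB1643 (-0.0659, 95% interval -0.200 to 0.0677) the log2 fold change of NPAT was not called.

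In CHLA15, 5 of the 9 genes were called, 1 higher and 4 lower, where 14.2% of all genes were called higher and 15.6% lower, and 3 were called without the palbociclib library 2 or without the control library 2. In CHLA20 6 were lower and none higher, against 15.9% and 13.7% of all genes. In NB1643 6 were lower and none higher, against 19.7% and 20.3%. In NB1691 8 were lower and none higher, against 15.5% and 17.4%. The proliferation markers moved with them: MKI67 fell in all 4 lines, with log2 fold changes of -5.24 in NB1643, -4.43 in NB1691, -0.58 in CHLA20 and -0.37 in CHLA15. PCNA fell in the first 3 of these, with -2.78, -1.59 and -0.50, and had -0.0848 in CHLA15 (adjusted p = 0.462). CCND1, which encodes the cyclin partner of CDK4 and CDK6, rose in all 4 lines, by 0.80 to 1.01. The part of these markers in the changes of the 9 genes was not tested.

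**Figure D3:**
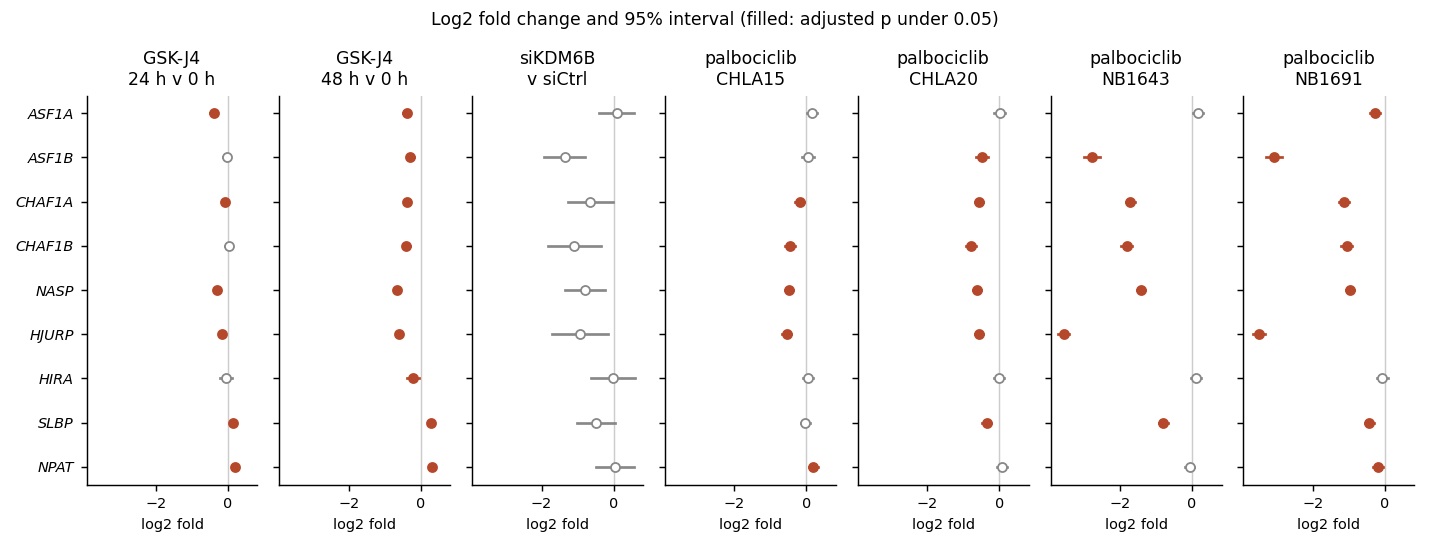
Log2 fold change (horizontal axes) with its 95% interval for the 9 genes in 7 comparisons; filled red points passed an adjusted p of 0.05 by edgeR's quasi-likelihood test, open grey points did not. The intervals of the siRNA comparison are the widest, HJURP and ASF1B lie near -3 in NB1643 and NB1691, and SLBP and NPAT lie above 0 in both GSK-J4 comparisons.

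The effect of palbociclib differed among the lines for 8 of the 9 genes by the interaction test, against 38% of all genes tested, and not for HIRA (adjusted p = 0.43). The smallest adjusted p were those of HJURP (3e-15), ASF1B (7.4e-13) and CHAF1A (2.1e-10). The test covers all 4 lines together, and differences between 2 lines were not tested.

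The untreated lines differed in these genes. NB1691 had the lowest CHAF1A (30.46 and 31.21 CPM), CHAF1B, NASP (138.5 and 141.5 CPM) and HJURP of the 4 lines and the highest ASF1A. CHAF1A was 3.44-fold lower in untreated NB1691 than in CHLA15 (adjusted p = 9.52e-16), 3.97-fold lower than in CHLA20 (adjusted p = 1.91e-16) and 2.67-fold lower than in NB1643 (adjusted p = 2.79e-14). ASF1B was 2.05-fold lower in NB1643 than in CHLA15 (adjusted p = 1.92e-09), and NB1691 and NB1643 were not called different in it (log2 fold change -0.0706, 95% interval -0.246 to 0.105). NASP was highest in NB1643, 1.53-fold above CHLA15 (adjusted p = 3.32e-09). HJURP was lower in NB1691 than in CHLA15, CHLA20 and NB1643 (log2 fold changes of -0.687, -0.681 and -0.784), as were SLBP (-0.349, -0.634 and -0.516) and HIRA (-0.478, -0.415 and -0.368), while ASF1A was higher (0.475, 0.413 and 0.637). NPAT was called in none of the 6 pairs of lines and had 29.35 to 32.60 CPM in the 8 untreated libraries.

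Called genes numbered 8 of the 9 for NB1691 against CHLA15 (78% of all genes) and 8 against CHLA20 (77.5%), 7 for NB1691 against NB1643 (80.7%), 5 for NB1643 against CHLA15 (64.6%) and 4 against CHLA20 (64.5%), so these shares were near those of all genes. CHLA20 and CHLA15 differed in 4 (12.4% of all genes): ASF1B, CHAF1A, CHAF1B and SLBP were higher in CHLA20, by 0.21 to 0.29 on the log2 scale. A fit of those 2 groups alone called 1 of the 9 (7.05% of all genes), as did fits without the CHLA15 control library 1 (4.89%), the CHLA15 control library 2 (5.64%) or the CHLA20 control library 2 (5.92%). In the NB1691 comparisons all genes together had a median of 0.083 to 0.128 on the log2 scale, and with library totals in place of the main scaling it was -0.32 to -0.28. COL1A1 had at most 1145518 counts in an NB1691 library, where counts on genes came to 64494840 to 93011010. The source of the shift with library totals was not tested.

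Ratios within the pairs of related genes were formed per kilobase in each library, so their size depends on the annotated exon lengths. The ratio of ASF1B to ASF1A was 1.11 and 1.13 in BE2C at 0 h, 1.46 and 1.43 at 24 h, and 1.22 and 1.18 at 48 h. It was 0.758 and 0.737 with siCtrl and 0.300, 0.272 and 0.254 with N1, N2 and N33. With palbociclib it went from 1.83 and 1.47 to 0.205 and 0.223 in NB1643 and from 1.01 and 0.997 to 0.163 and 0.123 in NB1691, so that the order of the paralogues turned in NB1643. In CHLA15 (2.93 and 3.09 against 2.84 and 2.75) and CHLA20 (3.26 and 3.62 against 2.45 and 2.48) ASF1B remained above ASF1A. The ratio of CHAF1A to CHAF1B stayed between 1.67 and 4.24 in the 16 palbociclib-experiment libraries and between 2.87 and 3.21 with GSK-J4. It was 3.87 and 3.54 with siCtrl, 3.54 with N1, 6.44 with N2 and 5.80 with N33.

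**Figure D4:**
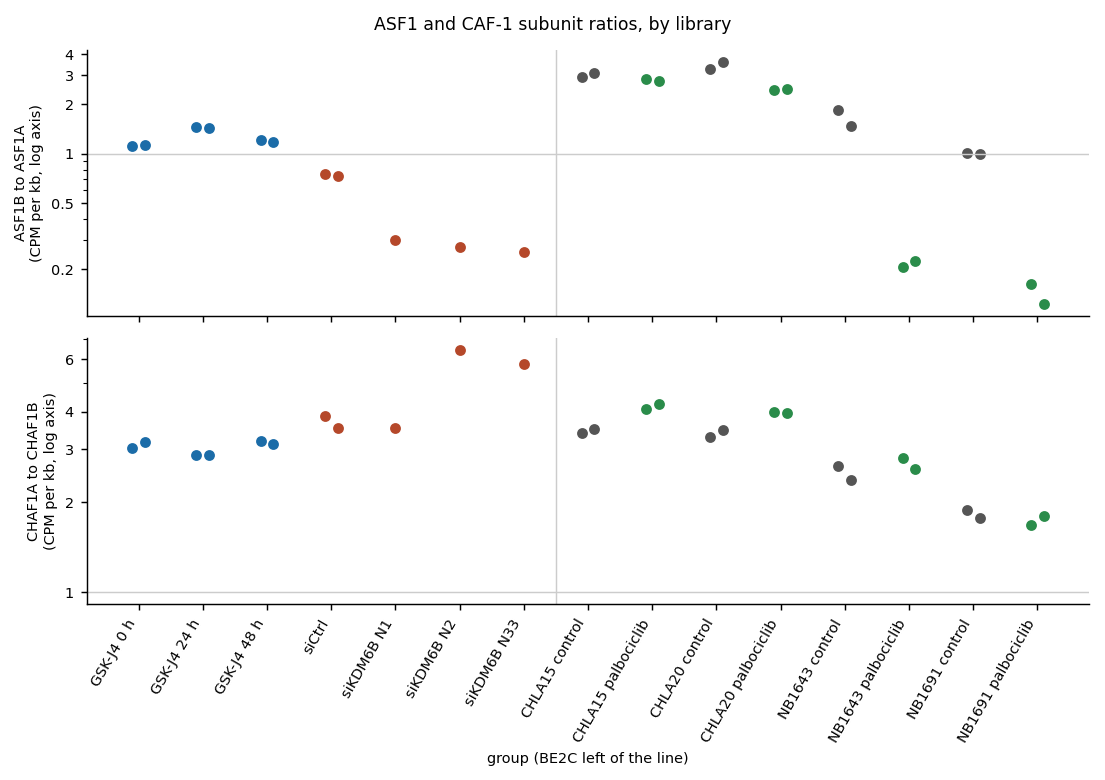
Ratio of ASF1B to ASF1A (upper panel) and of CHAF1A to CHAF1B (lower panel) in CPM per kilobase on log axes, 1 point per library, by group; BE2C groups stand left of the vertical line (GSK-J4 blue, siRNA red), control (grey) and palbociclib (green) groups of the other lines right of it. The ASF1 ratio is lowest in NB1691 with palbociclib (0.163 and 0.123) and the CAF-1 ratio highest with the siRNA N2 (6.44).

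Across libraries, 6 of the genes (ASF1B, CHAF1A, CHAF1B, NASP, HJURP and SLBP) varied together. Their pairwise Pearson correlations of log2 CPM ran from 0.68 (NASP and SLBP) to 0.97 over the 11 BE2C libraries, and from 0.90 to 0.99 over the 16 palbociclib-experiment libraries after each line's mean was subtracted. The libraries share lines, treatments and depth, so these values describe the set and carry no test. The BE2C values pool the GSK-J4 and siRNA libraries with no mean subtracted, so differences between these 2 experiments enter them. ASF1A correlated with ASF1B at -0.63 in BE2C and 0.23 in the other lines. In BE2C, ASF1A had 36.16 to 49.59 CPM in the GSK-J4 libraries and 62.66 to 72.01 CPM in the siRNA libraries. HIRA correlated with the 6 genes that varied together at -0.42 (SLBP) to 0.12 (NASP) in BE2C and at -0.25 to -0.07 in the other lines. With ASF1A it correlated at 0.31 in BE2C and 0.71 in the other lines. SLBP and NPAT correlated at 0.77 in BE2C and 0.29 in the other lines.

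The genes most like each of the 9 were ranked among 12573 genes by the lower of the 2 correlations. The BE2C correlation again pooled the GSK-J4 and siRNA libraries. HJURP was most like MCM10 (0.991), a replication initiation factor, NUSAP1 (0.989), a spindle protein, and NCAPG (0.986), a condensin subunit. ASF1B was most like CLSPN (0.98), ZWINT (0.968) and CDC25A (0.968), which encode a replication checkpoint adaptor, a kinetochore protein and a cell cycle phosphatase. CHAF1B was most like KNTC1 (0.983), PRIM1 (0.975), a primase subunit, and RFC4 (0.972), a clamp loader subunit. CHAF1A was most like TMPO-AS1 (0.976), NASP (0.97) and H2AFX (0.969), and NASP in turn was most like CHAF1A. SLBP was most like CDC6 (0.959), a replication licensing factor, RMI1 (0.958) and BRCA1 (0.957). ASF1A (SCFD1, BEX3 and PTBP2, 0.847 to 0.856), HIRA (UTP6, MED27 and FMNL1, 0.715 to 0.771) and NPAT (CEP350, RP11-876N24.5 and AUTS2, 0.761 to 0.772) had lower values.

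Related genes were counted by list. Of 28 other histone chaperones, 19 fell and 8 rose with GSK-J4 at 48 h, with a median log2 fold change of -0.37 beside 0.0546 for all genes, of which 34.4% fell and 37.1% rose. NPM3, a nucleoplasmin, fell by 1.12 and TSPYL2, a relative of the NAP1 chaperones, rose by 1.67. With palbociclib 18 of the 28 fell and 2 rose in NB1643, 14 fell and none rose in NB1691, 15 fell and 2 rose in CHLA20, and 13 fell and 2 rose in CHLA15. The share of all genes that fell was 19.7% in NB1643, 15.5% in NB1691, 15.9% in CHLA20 and 15.6% in CHLA15, and 20.3%, 17.4%, 13.7% and 14.2% rose. ANP32E, which removes the histone variant H2A.Z, had the lowest log2 fold change of the called chaperones in each line, at -1.78, -1.03, -0.62 and -0.42. Of 9 genes of CENP-A and its deposition, where HJURP acts, 8 fell and none rose in NB1643 and in NB1691, and CENPA itself had log2 fold changes of -5.08 and -3.28. In CHLA20 7 of the 9 fell, in CHLA15 4, and CENPA had log2 fold changes of -0.51 and -0.41. With GSK-J4 at 48 h 8 fell and RSF1, a remodelling factor, rose by 0.42, while CENPA fell by 2.51.

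Of 16 genes of histone gene transcription and histone mRNA processing and decay, where NPAT and SLBP act, 10 fell and 6 rose with GSK-J4 at 48 h, where 34.4% of all genes fell and 37.1% rose, so the share that rose was near that of all genes. LSM10 and LSM11 encode partners in the U7 particle that cuts histone mRNAs, and they parted: LSM10 fell by 1.46 and LSM11 rose by 0.93. With palbociclib 8 of the 16 fell and 1 rose in NB1643, 7 fell and 1 rose in NB1691 and in CHLA20, and 2 fell and 1 rose in CHLA15. Beside the 19.7%, 15.5%, 15.9% and 15.6% of all genes that fell in NB1643, NB1691, CHLA20 and CHLA15, the CHLA15 count was not above that of all genes. CDK2, the kinase that acts on NPAT, fell in all 4 lines, with log2 fold changes of -1.91 in NB1643, -0.74 in NB1691, -0.75 in CHLA20 and -0.46 in CHLA15. CCNE1, which encodes its partner cyclin E1, rose by 0.90 in CHLA15 and 0.57 in CHLA20.

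The replication-dependent histone RNAs, which SLBP and NPAT serve, fell with GSK-J4. At 48 h 62 of 66 tested fell and none rose, with a median log2 fold change of -2.04, where 34.4% of all genes fell, and at 24 h 58 fell, with a median of -0.879, where 28% of all genes fell. Summed over 75 histone genes, the level was 14512.1 and 14827.4 CPM at 0 h, 7817.9 and 8027.9 CPM at 24 h, and 3656.7 and 3509.8 CPM at 48 h. The sum was thus lower in the libraries in which SLBP and NPAT rose. With siCtrl the sum was 10877.0 and 10615.0 CPM, and with N1, N2 and N33 it was 5690.3, 6292.5 and 2139.4 CPM.

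In the palbociclib experiment the same sum was much smaller, at 69.7 to 282.4 CPM in all 16 libraries, which were scaled apart from BE2C. Reads that fell on no annotated gene made up 5.1% to 7.565% here. With GSK-J4 they made up 10.07% to 12.64%, and with siRNA 12.51% to 16.81%. Whether the RNA was prepared alike in both experiments was not tested, so how far these libraries capture histone RNA is uncertain. In NB1643 it was 180.8 and 201.4 CPM untreated and 269.9 and 262.0 CPM treated, in NB1691 72.0 and 69.7 CPM against 116.8 and 110.2 CPM, in CHLA20 231.5 and 282.4 CPM against 97.8 and 101.7 CPM, and in CHLA15 128.0 and 141.5 CPM against 77.3 and 83.8 CPM. The sums were thus higher after treatment in the NB lines and lower in the CHLA lines. Of 57 histone genes tested, 13 fell and 7 rose in NB1643, 4 fell and 9 rose in NB1691, 30 fell and none rose in CHLA20, and 8 fell and 1 rose in CHLA15. Of all genes tested, 19.7%, 15.5%, 15.9% and 15.6% fell in these lines and 20.3%, 17.4%, 13.7% and 14.2% rose, so the counts in NB1643, NB1691 and CHLA15 were near or under those of all genes. Histone genes are near-identical copies that can share reads, so single values are uncertain.

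**Figure D5:**
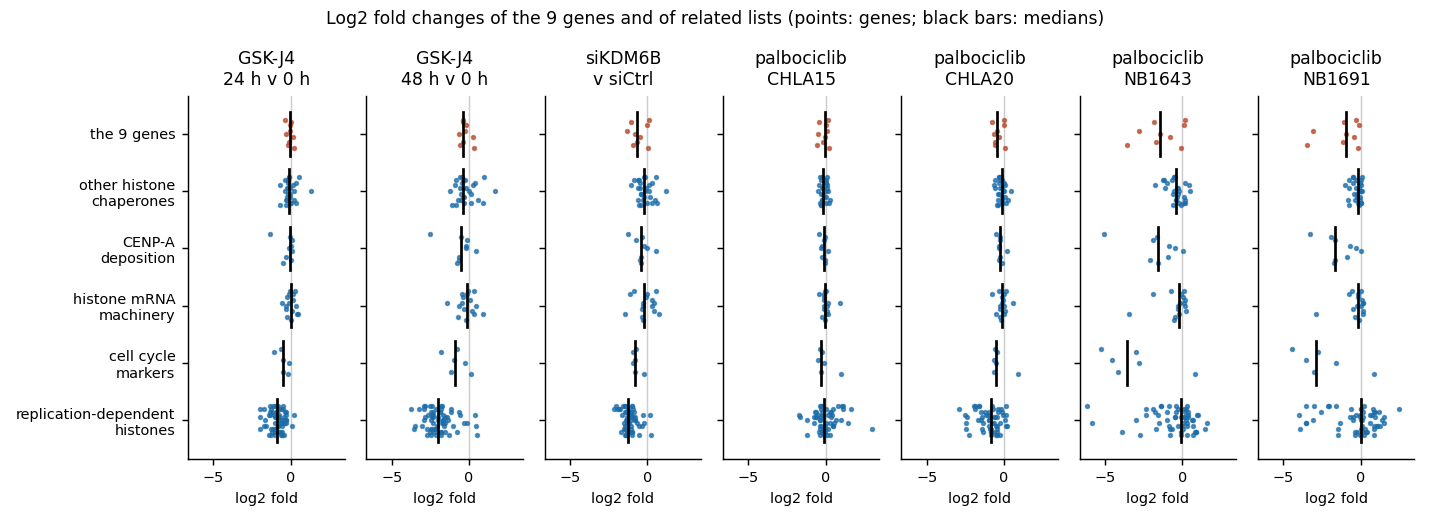
Log2 fold changes (horizontal axes) of the 9 genes and of 5 related lists in 7 comparisons; each point is a tested gene and each black bar the median of its list. The replication-dependent histones lie at a median of -2.04 with GSK-J4 at 48 h and of -0.0617 and 0.0324 with palbociclib in NB1643 and NB1691, where the 9 genes have medians of -1.43 and -0.969.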

How the data were processed

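Total RNA of cultured cells was sequenced paired-end. The authors' methods and the submitters' processing notes name CASAVA, STAR 2.5.3a with the GRCh37-lite genome, and HTSeq for counting reads per gene. The methods name a mouse Gencode release, although the deposited symbols are human, and the extract protocol in the labels speaks of xenograft tissue. The deposited values are raw counts per gene for each of 38 files, with no normalization by the authors. The counts on genes per library set the precision of each value, and intervals cover the fitted spread only.

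Of the 38 files, 22 from BE2C carry paired numbers in their titles and were summed in pairs into 11 libraries, since the files of a pair differed less than replicate libraries did (chi-square per degree of freedom 1.48 to 1.65, against 1.93 to 4.04). The 16 palbociclib-experiment files are 1 library each. Counts were scaled by TMM, filtered by filterByExpr and tested with edgeR 4.0.16 by the quasi-likelihood F test in R 4.3.3, two-sided, with Benjamini-Hochberg adjustment over all genes tested and a threshold of 0.05 (17472 genes for siRNA as a group, 19873 for single siRNA libraries, 17734 for GSK-J4, 22133 for palbociclib and the untreated lines). The SE is the absolute log2 fold change divided by the root of F, and intervals are 95% intervals. CPM were computed from TMM-scaled library sizes, and CPM per kilobase used the union of GENCODE exons on GRCh37. Likeness used log2 CPM with a pseudocount of 0.5 among genes with a mean of at least 1 CPM in both experiments.

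Alternatives were DESeq2 1.42.0, limma-voom (limma 3.58.1), upper quartile scaling, library totals, a minimum of 10 counts in every library or of 1 count in all together, each file as a sample, the siRNA and GSK-J4 libraries in 1 fit, the compared groups alone, the replicate number as a block, and leaving out each library in turn. The scripts were tested on simulated data. The 9 genes, the related lists and the motifs were chosen with earlier results of these data known. All 9 genes are counted in every comparison, and from each related list up to 2 called genes with the lowest and 2 with the highest log2 fold change were eligible. CENPA, MKI67 and PCNA, and values of a named gene in further lines, were added where they fell outside that rule.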

Additional observations from a re-analysis of the deposited data

Results flagged for a closer look

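The effect of palbociclib differed among the 4 lines by the interaction test (edgeR, adjusted over 22133 genes) for 8 of the 9 genes. The adjusted p was 3e-15 for HJURP, 7.4e-13 for ASF1B and 2.1e-10 for CHAF1A. It was 2.3e-08 for NASP and 2.5e-08 for CHAF1B, which like HJURP and CHAF1A fell in all 4 lines, and 1e-05 for SLBP, which was not called in CHLA15. For ASF1A it was 0.0024, with a decrease called in NB1691 alone, and for NPAT it was 0.012, with an increase called in CHLA15 and a decrease called in NB1691. The NB lines received 3 μM and the CHLA lines 300 nM, so line and dose cannot be told apart.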

How the results depend on the processing

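Of the values recomputed for the 9 genes, 826 kept their direction and their side of the threshold, 25 gained a call, 30 lost one and 19 changed sign, all of these in values that were not called. For siKDM6B against siCtrl, 0 genes were called, and DESeq2 called 1 (0.899% of all genes), no filter beyond 1 count 1 (0.249%), each file as a sample 6 (15.4%), and the siRNA and GSK-J4 libraries in 1 fit 3 (3.69%), with ASF1B among them in each case (-1.36, -1.39, -1.34 and -1.36 on the log2 scale). Counting each file as a sample takes files of 1 library as independent. In that comparison HIRA turned to 0.0144 with upper quartile scaling, 0.0468 with library totals, 0.00116 with at least 10 counts in every library and 0.00456 with each file as a sample, and it ran from -0.112 to 0.0553 when 1 library was left out, while NPAT ran from -0.0688 to 0.119. ASF1B at 24 h of GSK-J4 turned to 0.013 with upper quartile scaling, and HIRA at 24 h ran from -0.143 to 0.0391 with 1 library left out. From 24 h to 48 h ASF1A turned to -0.0084 with DESeq2 and -0.0163 with no filter beyond 1 count, and ran from -0.0288 to 0.0342 with 1 library left out. With palbociclib and 1 library left out, the count of called genes in CHLA15 was 3 to 4, HIRA ran from -0.0078 to 0.0823 there, and in CHLA20 ASF1A ran from -0.0508 to 0.0369 and HIRA from -0.09 to 0.0285. For untreated CHLA20 against CHLA15 the count went from 4 to 1 with the compared groups alone, and was 1 to 4 with 1 library left out. Apart from the construction of each alternative, the cause was not tested.

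Same-numbered libraries did not deviate together (correlations of -0.0628 to 0.0483 over all genes), so the numbers do not pair the samples. With the replicate number as a block, 6, 9 and 8 of the 9 genes were called in the GSK-J4 comparisons (24 h and 48 h against 0 h, and 48 h against 24 h) and 6, 6, 7 and 8 in CHLA15, CHLA20, NB1643 and NB1691, where the block called 56%, 71.8%, 54.5%, 30.3%, 30.2%, 40.5% and 33.7% of all genes. The genes gained were HIRA from 24 h to 48 h (adjusted p = 0.0389), ASF1A in CHLA15 (0.037) and ASF1A in NB1643 (0.0242).

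Groups held 2 libraries, and each siRNA 1, which limits what the tests can show. The KDM6B RNA gave no check of the siRNA, and HIRA counts share exons with C22orf39.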
